A study of Homo sapiens with 6 samples.

Results

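Housekeeping transcripts are the yardstick against which quantitative real-time PCR (qRT-PCR) and many expression comparisons are read. The 8 transcripts described here are UBB and RPS27A, which encode ubiquitin, and ACTB, GAPDH, HPRT1, TBP, PPIA and GUSB, which are in wide use as reference genes. They were picked by name, with earlier results of these data known, and FPKM entered the rule only to choose between rows of a symbol. All 8 of the 8 were found among the 22933 gene symbols of the table. RNA-Seq had been performed on PC-3 cells, an established human prostate cancer cell line derived from a bone metastasis. Every sample carried the rtTA transactivator of the Tet-On system from a first retrovirus selected with G418, and a second retrovirus that expresses tdTomato from the PGK promoter. The 3 samples labelled tdTom carried this second virus without an insert, and the 3 samples labelled TTP-tdTom carried it with tristetraprolin (TTP) under the doxycycline (Dox) responsive promoter. All 6 samples received 300 ng/ml Dox for 4 hours, so that Dox did not differ between the groups. The groups differed by the TTP insert, and also by a separate infection with the second virus. Infected cells were sorted for tdTomato, and the labels do not say whether the 3 samples of a group came from separate infections.

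Expression is given as FPKM, in which fragment numbers are scaled by transcript length and per library. The methods do not say how the libraries were scaled to each other. For each of 406165 assembled loci there is 1 FPKM value per group, so that no spread between samples can be given and no test between the groups was run. A ratio below is TTP-tdTom over tdTom on the log2 scale, and "lower" or "higher" describes these pooled values. The depth per sample cannot be read from FPKM. Because FPKM is scaled per library, a change in the total RNA per cell would not be seen. ZFP36, the gene that encodes TTP, measured 5.56 FPKM with tdTom against 5.54 with TTP-tdTom. The targeted gene thus did not separate the groups, and whether fragments of the transgene are counted at this locus was not tested. The direction of each ratio rests on the labels, and TTP-tdTom below stands for the group labelled so. Of 5 epithelial markers, KRT8, KRT18, KRT19 and EPCAM had FPKM values between 15.1 and 98.2 in both groups, whereas CDH1 had 0.119 and 0.390. Of 7 markers of leukocytes, endothelium and fibroblasts, COL1A1 was the highest, at 4.34 and 4.56, and COL3A1 was at 2.46 with tdTom and listed at 0 with TTP-tdTom. The other 5 were under 1 FPKM in both groups. All samples were of the sorted PC-3 line, and the source of the COL1A1 and COL3A1 values was not tested.

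Ubiquitin is a small protein that is attached to other proteins and marks many of them for the proteasome. It is never translated as a free monomer. UBB encodes a head-to-tail chain of ubiquitin, while RPS27A encodes a ubiquitin fused to a protein of the small ribosomal subunit, and proteases release the ubiquitin. TTP binds AU-rich elements in 3′UTRs, with UAUUUAU at their core, and delivers the mRNA to decay.

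In the GENCODE release 29 transcripts matched to the RefSeq names of the table, the first 76 codons of UBB and RPS27A encode the same residues. This unit occurs 3 times in UBB, which has 229 codons, and 1 time in RPS27A, which has 156.

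The members that encode ubiquitin, UBB and RPS27A, were both above the median ratio of expressed genes. UBB, on chromosome 17 of GRCh37 from 16284367 to 16286054, measured 116.3 FPKM with tdTom against 111.0 with TTP-tdTom. Its log2 ratio of -0.07, or 95.4% of the tdTom level, was the closest to 0 of the 8 members as deposited, and the farthest from 0 at the same upper quartile. RPS27A, on chromosome 2 within a locus from 55399687 to 55497337, measured 380.0 FPKM with tdTom against 333.7 with TTP-tdTom, a log2 ratio of -0.19. A second row of RPS27A in the same interval, with 1 RefSeq name in place of 3, measured 0.966 and 0.164 FPKM, and was not used. Both ratios were below 0 in the deposited scaling, and both turned above 0 when the groups were centred on the median of expressed genes, where RPS27A was closer to 0 than UBB.

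Among the abundant members outside UBB and RPS27A, GAPDH had the highest level. GAPDH, the glyceraldehyde phosphate dehydrogenase of glycolysis, lies on chromosome 12 from 6643585 to 6647537. It measured 2962 FPKM with tdTom against 2425 with TTP-tdTom, a log2 ratio of -0.29. Among 12032 expressed gene symbols, which reach 1 FPKM with tdTom as well as with TTP-tdTom, its rank was 7 and then 14. ACTB encodes beta-actin of the cytoskeleton and lies on chromosome 7 from 5566779 to 5570232. It measured 406.2 and 345.9 FPKM, a log2 ratio of -0.23. PPIA encodes cyclophilin A, a prolyl isomerase, and lies on chromosome 7 from 44836241 to 44842716. It measured 342.4 and 303.1 FPKM, a log2 ratio of -0.18, which is within 0.02 of RPS27A.

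The scarce members had the lowest ratios. TBP, the TATA-binding protein that nucleates transcription complexes at promoters, lies on chromosome 6 from 170863079 to 170881958. It measured 19.2 FPKM with tdTom against 13.1 with TTP-tdTom. The log2 ratio of -0.56, or 68.0% of the tdTom level, was the lowest of the 8. GUSB, the lysosomal beta-glucuronidase, lies on chromosome 7 from 65425222 to 65447384, and measured 5.29 and 3.85 FPKM, a log2 ratio of -0.46. HPRT1, which salvages hypoxanthine and guanine into nucleotides, lies on chromosome X from 133594175 to 133634698, and measured 13.1 and 10.5 FPKM, a log2 ratio of -0.33. All 3 members with an FPKM below 20 with tdTom had a lower ratio than each of the 5 members above 100, a division made after the values were seen. Level alone did not order the ratios, as GAPDH, the most abundant, was below ACTB, RPS27A, PPIA and UBB. Expressed symbols in the same level decile as a member had a median log2 ratio of -0.28 for TBP, -0.26 for GUSB, -0.31 for HPRT1 and -0.22 for the 5 abundant members. TBP and GUSB were therefore below the median of their level decile, whereas HPRT1 was within 0.02 of it.

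**Figure D1:**
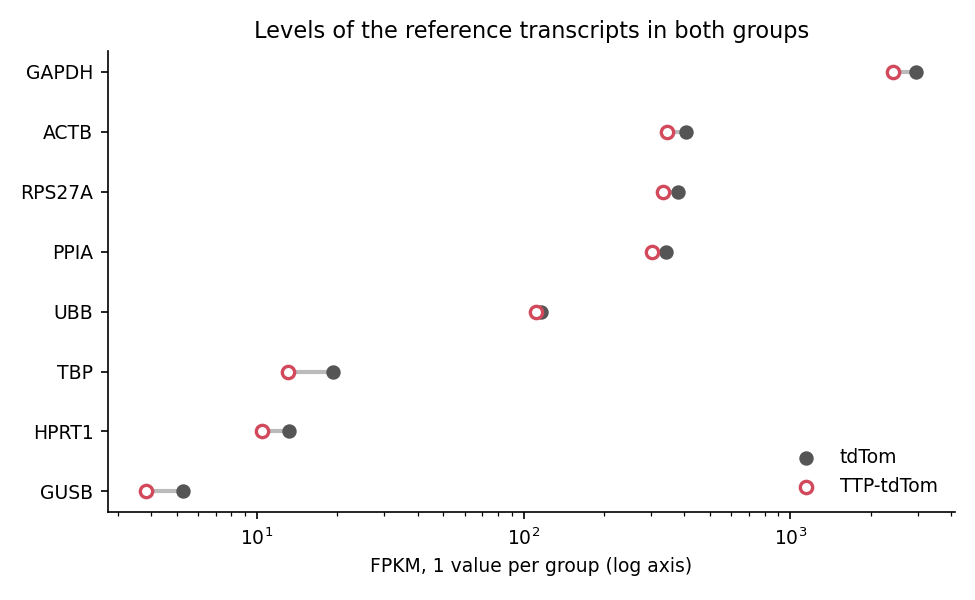
FPKM of the 8 members with tdTom (filled points) and with TTP-tdTom (open points), 1 value per group, on a log axis. In the deposited scaling, from which 6 of the 8 directions turn at the same upper quartile, every open point lies to the left of its filled point, by the least for UBB (log2 ratio -0.07) and by the most for TBP (-0.56).

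As a check of group scaling, the members were set beside all expressed gene symbols. As deposited, all 8 members were lower with TTP-tdTom, as were 81.2% of the 12032 expressed symbols, and in 6 of the 8 the direction turned when both groups were set to the same upper quartile. None of the 8 differed by 1.5-fold, whereas 22.4% of expressed symbols were at least 1.5-fold lower and 1.07% at least 1.5-fold higher. TBP, with a 1.47-fold difference, was just inside this limit. At a smaller limit of 0.32 on the log2 scale, HPRT1, TBP and GUSB were past it, 3 of the 8, beside 40.6% of expressed symbols that were lower by that much. The median log2 ratio of the members was -0.26 and that of all expressed symbols -0.24, with the lower and upper quartiles of the latter at -0.54 and -0.06. Over all symbols above 0 in both groups, without the minimum of 1 FPKM, the median was -0.15, farther from that of the members. Of the 8 members, 7 lay between these quartiles, 4 above and 4 below the overall median. The order of the 8 by FPKM was the same in both groups, and their range was 560.1-fold with tdTom and 629.8-fold with TTP-tdTom.

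**Figure D2:**
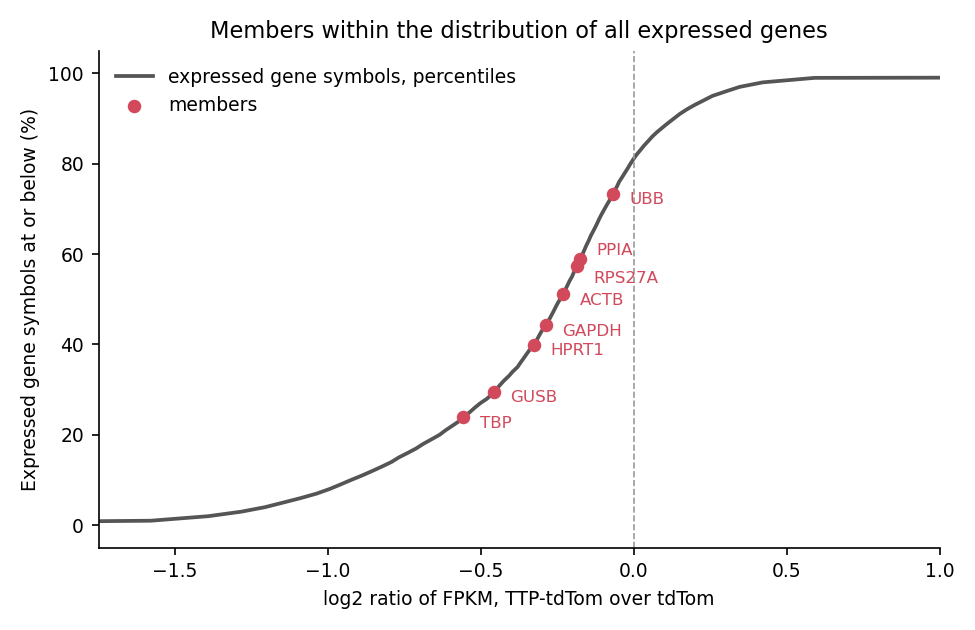
Percentage of expressed gene symbols (vertical axis) at or below a given log2 ratio of FPKM, TTP-tdTom over tdTom (horizontal axis), with the members as points on the curve. TBP and GUSB lie above 23.8% and 29.4% of expressed symbols, ACTB near the middle at 51.1% and UBB at 73.3%.

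The pooled ratios differed between members, and with 1 value per group this cannot be told from variation between samples. Over the 28 pairs of members, the log2 ratios differed by a median of 0.16 and at most by 0.49, between UBB and TBP, which is 1.40-fold. In 7 pairs the difference was under 0.1 and in 5 pairs it was over 0.3. The smallest difference, 0.012, was that between RPS27A and PPIA. The choice of a single reference would thus shift every other transcript by up to 0.49 on the log2 scale, without changing any difference between 2 targets.

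The effect of that choice was followed in the 16 genes measured by qRT-PCR in the study and analysed here, among them the chemokines IL8 and CXCL1, the kinase CDK1, and mitochondrial genes such as GPD2, CYCS and IDH3A. As deposited, their median log2 ratio was -1.30, from -2.38 at IL8 to -0.63 at IDH3A, and all 16 were at least 1.5-fold lower. Relative to UBB the median was -1.23 and relative to RPS27A -1.11, each with 15 of the 16 past 1.5-fold. Relative to PPIA the median was -1.12, to ACTB -1.07, to GAPDH -1.01 and to HPRT1 -0.97. The references with the lowest ratios gave the smallest differences, with a median of -0.84 relative to GUSB, where 13 targets were past 1.5-fold, and -0.74 relative to TBP, where 11 were. All 16 targets were lower relative to each of the 8 members and under each uniform scaling tried. IDH3A, the catalytic subunit of a citric acid cycle dehydrogenase, was the closest to 0 with every reference, at -0.56 relative to UBB and -0.07 relative to TBP. These 16 genes were selected by the study on the same samples, so that their direction is no independent evidence.

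**Figure D3:**
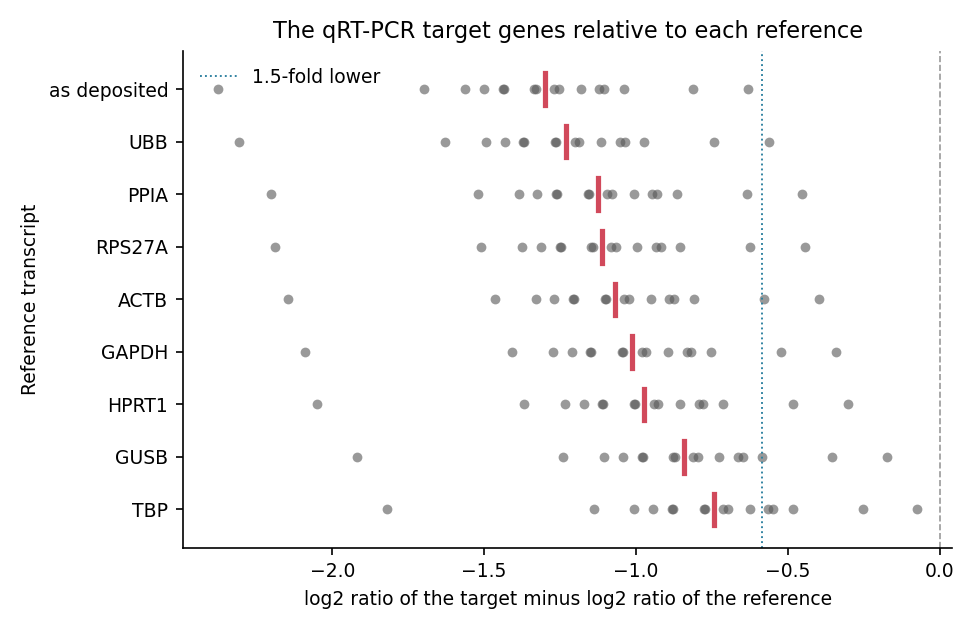
Log2 ratio of each of the 16 qRT-PCR target genes minus that of a reference transcript (points), for the table as deposited and for the 8 members as references, with a bar at the median and a dotted line at 1.5-fold lower. The bar moves from -1.30 as deposited to -0.74 with TBP as the reference.

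The share of all expressed symbols that counts as lower also followed the reference. It was 81.2% as deposited and 73.3% relative to UBB. It was 57.2% relative to RPS27A, 58.9% to PPIA and 51.1% to ACTB. Below the middle, it was 44.1% relative to GAPDH, 39.9% to HPRT1, 29.4% to GUSB and 23.8% to TBP. The share at least 1.5-fold lower fell from 22.4% as deposited to 19.3% relative to UBB, 11.5% relative to GAPDH and 5.09% relative to TBP, while the share at least 1.5-fold higher went from 1.07% to 1.31%, 4.04% and 16.5%.

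Sequence features of the members were read from the longest GENCODE transcript that carries a RefSeq name of the table, which was found for 90.8% of expressed symbols. In the 3′UTR of 7 of the 8 members the heptamer UAUUUAU (on the mRNA strand) was absent. TBP was the exception, with 1 copy that starts at base 257 of a 3′UTR of 604 bases. The site is shown in DNA letters with the heptamer in capitals, since it belongs to the member with the lowest ratio.

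TBP site: cgctgcccattTATTTATatgtagatttt

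The 3′UTRs without the heptamer were 143 bases in UBB, 201 in GAPDH, 213 in GUSB, 276 in RPS27A, 591 in HPRT1, 600 in ACTB and 1695 in PPIA. Among 10844 expressed symbols with a 3′UTR, 34.7% held at least 1 copy. Their median log2 ratio was -0.18 with 0 copies, -0.37 with 1 copy and -0.60 with 2 or more. TBP at -0.56 was below the median of genes with 1 copy, within their quartiles of -0.70 and -0.15. GUSB at -0.46, HPRT1 at -0.33 and GAPDH at -0.29 were below the median of genes with 0 copies, UBB was above it, and PPIA, RPS27A and ACTB were within 0.06 of it. The shorter pentamer AUUUA was found 3 times in the TBP 3′UTR, 2 times each in RPS27A and PPIA, 1 time each in ACTB and HPRT1, and 0 times in UBB, GAPDH and GUSB. A match of these letters is a description of the sequence, and binding by TTP was not measured here.

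The GC content of the transcript also moved with the ratio across genes, and its part in the members' ratios was not tested. In deciles of expressed symbols by GC content, the median log2 ratio went from -0.77 in the lowest decile (29.6% to 38.6% GC) to -0.10 in the highest (61.8% to 74.5%). HPRT1, with the lowest GC content of the members at 40.6%, had a ratio 0.24 above the median of its decile, -0.57. RPS27A at 44.5% GC was 0.14 above its decile, UBB at 51.5% was 0.13 above and PPIA at 46.0% was 0.08 above. The other 4 were below their decile, ACTB at 55.2% GC by 0.12 and GAPDH at 58.8% by 0.18. TBP, at 46.8% GC, was lower than the -0.26 of its decile by 0.30. GUSB, at 56.1% GC, was lower than the -0.12 of its decile by 0.34, the widest distance of the 8. Seen beside genes of like GC content, HPRT1 therefore changed its place from the 3 lowest of the members to the highest, while GUSB and TBP stayed the lowest. Beside genes of the same decile and also with 1 copy of the heptamer, 256 symbols with a median of -0.34, TBP was below the median and within the quartiles of -0.62 and -0.17. Matched in the same way, to symbols of their decile with 0 copies, GUSB at -0.46 was below a lower quartile of -0.23, GAPDH at -0.29 below one of -0.22 and ACTB just below one of -0.23, while UBB, RPS27A, HPRT1 and PPIA were within their quartiles.

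**Figure D4:**
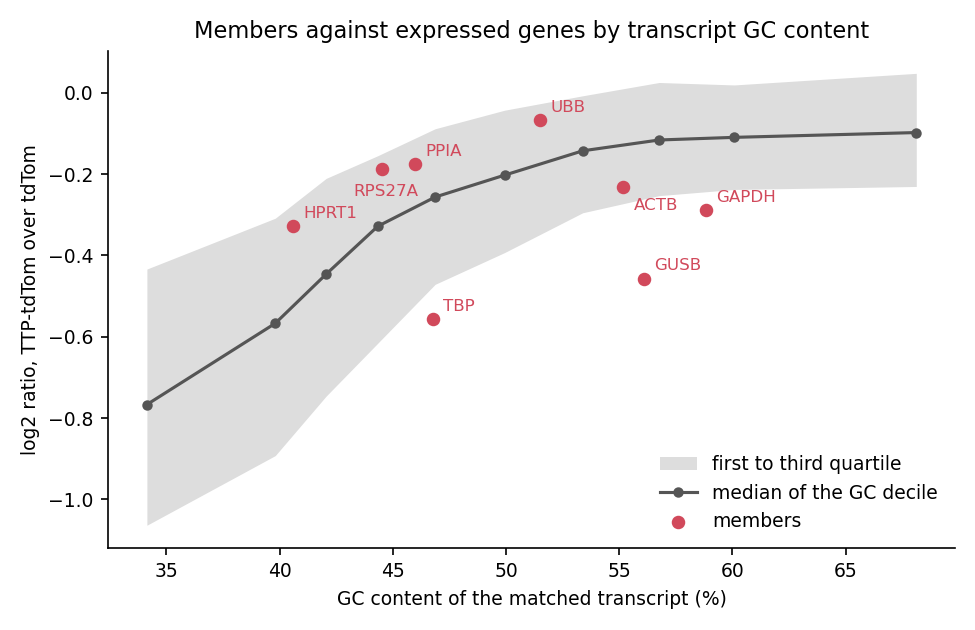
Log2 ratio of FPKM (vertical axis) against the GC content of the matched transcript in percent (horizontal axis) for the members (labelled points), with the median and the quartiles of each decile of expressed gene symbols. HPRT1, RPS27A, PPIA and UBB lie above the line of medians, and ACTB, GAPDH, TBP and GUSB lie below it.

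Several members share sequence with pseudogenes, between which short reads can be divided, so that their levels, and with them their ratios, are uncertain. By name, GENCODE lists 88 pseudogenes of PPIA, 62 of GAPDH, 17 of RPS27A, 10 of ACTB, 10 of GUSB, 5 of UBB, 3 of HPRT1 and 0 of TBP. How the authors' alignment handled reads with several matches is not given in the sources used here. By a fixed rule, distances between symbols were taken in the log2 FPKM of both groups, over 2 values per gene. For each member, the nearest expressed symbol outside the gene lists used here was also found. For GUSB this was its own pseudogene GUSBP4, which measured 5.28 and 3.84 FPKM, at a distance of 0.0053. GUSBP4 had a log2 ratio of -0.46, as did GUSB, and whether reads were shared between them was not tested. For TBP it was ATG4D at 19.5 and 13.1, for HPRT1 FAM168B at 13.1 and 10.5, and for UBB TMEM205 at 115.4 and 110.2. For RPS27A it was HSPD1, for ACTB NDUFA13 and for PPIA LSM3, all within 0.04. For ACTB and PPIA, symbols within the lists lay nearer. GAPDH had no close neighbour, the nearest being RPPH1 at 2452 and 2136, at a distance of 0.33.

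The families around each member are described in the deposited scaling, since at the same upper quartile the median of each of the 7 families below except TFIID turned above 0. Cytosolic ribosomal protein genes, to which RPS27A belongs, were the most uniform. Of 79 listed genes, 78 were expressed, 71 lower (0 at the same upper quartile) and 7 higher, and 0 past 1.5-fold, with a median log2 ratio of -0.14 and quartiles of -0.20 and -0.07. RPL39 was the lowest, at -0.36. TBP and GUSB were lower than every one of these 78, and 2 of them were lower than HPRT1. UBB, by contrast, was above 59 of the 78.

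The counts in these families are to be read beside the 81.2% of all expressed symbols that were lower and the 22.4% that were at least 1.5-fold lower. Around GAPDH, 17 enzymes of glycolysis and lactate formation were expressed, with a median log2 ratio of -0.27. Of these, 16 were lower as deposited (4 at the same upper quartile), and 2 were at least 1.5-fold lower. The 17 ranged from -1.12 at ENO2, a neuronal enolase, to 0.08 at ALDOC, an aldolase. Around ACTB, all 28 actins and actin filament proteins were lower (8 at the same upper quartile). Of the 28, 5 were past 1.5-fold, and the median was -0.26. The 28 ranged from -1.35 at ARPC5, a subunit of the actin-nucleating Arp2/3 complex, to -0.02 at CFL1, cofilin. Among 17 cyclophilins, 14 were lower (6 at the same upper quartile) and 1 past 1.5-fold. Their median was -0.20, from -1.10 at PPIL4 to 0.31 at PPIL6. The members GAPDH, ACTB and PPIA were each within 0.03 of the median of their own family.

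Around TBP, the 16 genes of the promoter complex TFIID had a median log2 ratio of -0.44. Of these, 14 were lower, 5 by at least 1.5-fold, next to 81.2% and 22.4% of all expressed symbols. At the same upper quartile 8 of the 16 were lower, with a median of -0.036. As deposited, the 16 ranged from -1.24 at TAF13 to 0.19 at TAF5. The heptamer was present in 5 of the 16, with a median of -0.48, and absent from 11, with a median of -0.40. Around GUSB, 11 of 14 lysosomal glycosidases were expressed, with a median of -0.15. Of the 11, 9 were lower (1 at the same upper quartile) and 0 past 1.5-fold. GUSB was the lowest of the 11 and NEU1, a sialidase, the highest at 0.15. Of 6 purine salvage genes, 5 were expressed and all 5 were lower (2 at the same upper quartile), with HPRT1 at the median. DCK, deoxycytidine kinase, was at -1.71, past 1.5-fold, and PNP, purine nucleoside phosphorylase, at -0.08.

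**Figure D5:**
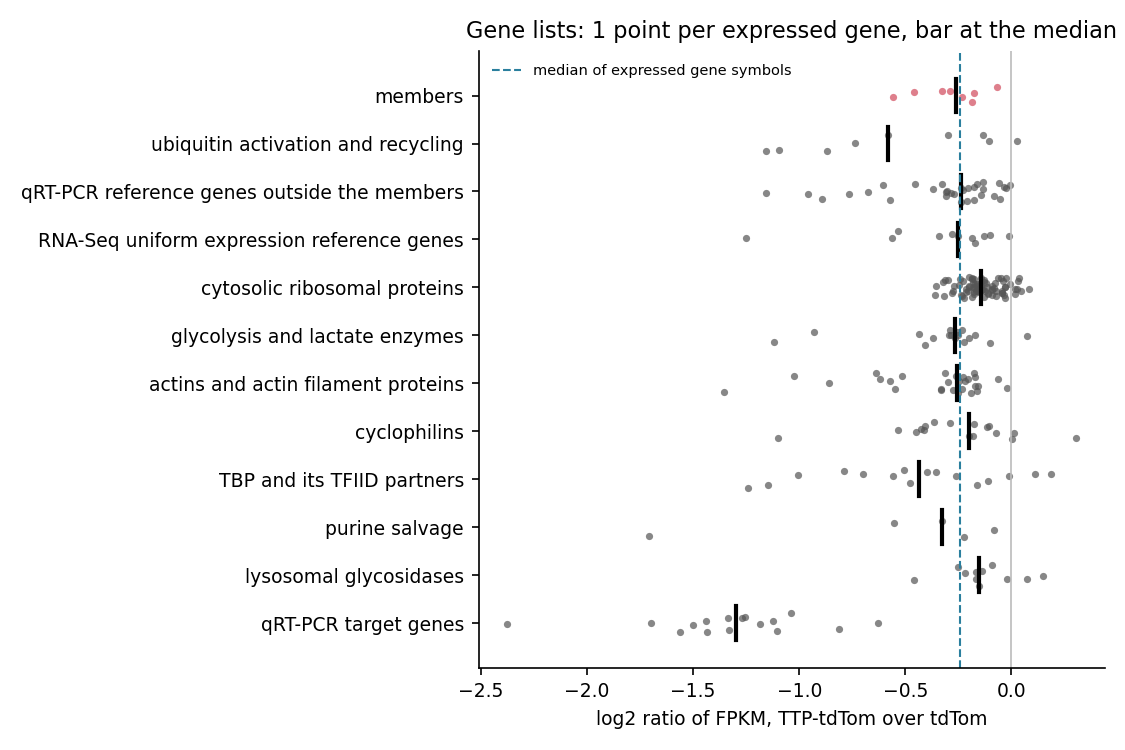
Log2 ratio of FPKM, TTP-tdTom over tdTom, as deposited, for the expressed genes of each list (points; a gene may be in several lists), with a bar at each list's median and a dashed line at -0.24, the median of all expressed symbols. The ribosomal protein genes lie at or above -0.36, and the median of the qRT-PCR target genes lies below the other medians, while their points overlap with those of several lists.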

How the data were processed

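RNA-Seq libraries of 6 PC-3 samples, 3 tdTom and 3 TTP-tdTom, were strand-specific and sequenced in pairs. According to the methods and the submitters' processing notes, the authors aligned reads with TopHat2 2.0.13 to Hs37D5 (GRCh37 with decoy sequence) and compared groups with Cufflinks 2.2.1. The deposited FPKM values, 1 per group and locus, pool the 3 samples. Further columns hold the authors' own comparison (fold changes and significance) and were not used. The design foresaw a replicate fit if values per sample were present, which was not the case. Ratios were computed from the FPKM values, with no pseudocount. Where several loci carried a symbol, the row kept was that with the most RefSeq names, then the highest FPKM sum, and 964 expressed symbols share a row with another symbol. A call means a 1.5-fold difference. The rule picks the members by name and uses FPKM sums only to choose between rows of a symbol. Members and lists were chosen with earlier results of these data known. Named genes were the members, ZFP36, the 16 qRT-PCR targets, the lowest and highest of each list, and the nearest symbol to each member outside the lists. Cell type markers, genes listed for a heptamer and some reference genes and enzymes are named besides, the last chosen after their values were seen. Some genes that this rule names are not reported here. Transcript features came from GENCODE release 29, used for sequence and not for coordinates. Alternatives were pseudocounts, scalings, loci and folds. Depth per sample is unknown, as FPKM holds no counts. Functions were tested on simulated data. The software was numpy 2.4.6, pandas 2.3.3 and matplotlib 3.10.9 under Python 3.11.15.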

Additional observations from a re-analysis of the deposited data

How the results depend on the processing

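No paired analysis was possible because the table holds 1 value per group, and for the same reason no replicate could be left out. The median log2 ratio of the 8 members, -0.26, was -0.019 after centring on the median of expressed symbols, -0.12 after centring on ribosomal protein genes, -0.017 after centring on the GC decile (chosen after seeing the data) and 0.14 at the same upper quartile. The shifts subtracted were -0.24, -0.14 and -0.40 for the overall median, the ribosomal protein genes and the upper quartile. The signs of members turned as follows: by the overall median UBB to 0.17, RPS27A to 0.054, ACTB to 0.0097 and PPIA to 0.066; by ribosomal protein genes UBB to 0.075; by GC decile UBB to 0.13, RPS27A to 0.14, HPRT1 to 0.24 and PPIA to 0.081. At the same upper quartile UBB was 0.33, RPS27A 0.21, ACTB 0.17, GAPDH 0.11, HPRT1 0.074 and PPIA 0.23. TBP and GUSB were below 0 under every setting run. The number of members past 1.5-fold, 0, was 3 at a limit of 0.32 on the log2 scale and stayed 0 under the other settings. With the geometric mean of the 8 members as the reference, the median of the target genes was -1.01, against -1.23, -1.12, -0.84 and -0.74 relative to UBB, PPIA, GUSB and TBP. For the ratios of the members and their median, pseudocounts, the choice of locus and the same FPKM sum moved no value by 0.1 or more. The median of all symbols, -0.24, was -0.24 at a minimum of 10 FPKM and -0.15 for symbols above 0 in both groups. Differences between members are free of the uniform scalings.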

Other observations

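Further genes in use as references were read from lists of 33 qRT-PCR reference genes and 11 genes proposed as uniform in RNA-Seq. Of these, 43 were expressed, and as deposited all 43 were lower with TTP-tdTom, of which 32 turned at the same upper quartile and 22 when the overall median was set to 0. Of all expressed symbols 81.2% were lower, and 7 of the 43 were past 1.5-fold, next to 22.4% of all expressed symbols. The closest to 0 were PES1, a ribosome biogenesis factor, at 29.7 and 29.6 FPKM, and SNRPD3, a core spliceosomal protein, at 70.5 and 70.0. The 8 genes within 0.1 of 0 on the log2 scale, among them NONO, RPL30, CASC3, CYC1 and CHMP2A, are close in share to the 18.9% of all expressed symbols that lie there, and of the 8 members only UBB did. Within 0.1 of the median of all expressed symbols were 20 of the 43 and 5 of the 8 members, next to 25.3% of all expressed symbols. ABL1, EIF2B1 and GPI were within 0.01 of the median of all expressed symbols. The lowest were REEP5 at -1.25, ELF1 at -1.16, EIF4A2 at -0.96 and TOP1 at -0.89, and among common references YWHAZ was at -0.68 and B2M at -0.61. The reference genes named here, apart from the lowest and highest of each list, were picked after their values were seen. The heptamer was present in 5 of the 43 (TFRC, PGK1, MRPL19, EIF4A2 and PSMB2), with a median of -0.54, and absent from 37, with a median of -0.23. In ribosomal protein genes the order was the other way, with a median of -0.11 in 7 genes with the heptamer and -0.14 in 69 without. The 5 had a median GC content of 41.5% and the 37 one of 51.3%, so that the heptamer and GC content cannot be told apart in so few genes.

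Enzymes that activate and recycle ubiquitin had ratios on either side of those of UBB and RPS27A. Of 10 listed, 9 were expressed and 8 were lower as deposited (5 at the same upper quartile), 4 of them by at least 1.5-fold, next to 81.2% lower and 22.4% past 1.5-fold among all expressed symbols. Their median log2 ratio was -0.58, beside -0.07 for UBB and -0.19 for RPS27A. USP14, a deubiquitinase of the proteasome, was the lowest at -1.16, and OTUB1, a deubiquitinase of the cytosol, the highest at 0.03. USP5, at -0.11, and UBA1, at -0.13, were also above RPS27A, both named after their values were seen. The difference between the lists was not tested.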
